A study of Homo sapiens with 12 samples.

Results

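Bone morphogenetic protein (BMP) signalling and its best known target genes, the inhibitors of DNA binding (ID), are described here through 10 genes. They are the ligands BMP2, BMP4 and BMP7, the receptors BMPR1A and BMPR2, the inhibitory SMAD6, and ID1, ID2, ID3 and ID4. They were chosen by gene symbol, with earlier results of these data known, and are held in 12 of the 29094 accession rows of the count table. Of the 10 genes, 7 had enough counts to be tested. BMP7, SMAD6 and ID4 did not.

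Messenger RNA was sequenced in MCF10AT, an established line of mammary epithelial cells transformed by HRasG12V. All 12 libraries came from cells transduced with lentiviral particles carrying an shRNA and then selected with puromycin, so the control cells carry a vector too. Cells of every group were grown with 5% donor horse serum, epidermal growth factor at 20 ng/ml, insulin, hydrocortisone and cholera toxin, and selection was for 3 days at 1 µg/ml. Groups EP300 KD1 and EP300 KD2 each express a different shRNA against EP300, and NS1 and NS2 express non-silencing controls, with 3 libraries in each of the 4 groups. The labels say that each EP300 shRNA has its own control without naming it, so EP300 KD1 was set against NS1 and EP300 KD2 against NS2 by their numbers. Cells were selected as populations with no clone named. The labels do not state separate cultures for the 3 libraries of a group, so p-values speak only of the spread among libraries, possibly a technical one.

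BMP ligands are secreted dimers that bring together type I receptors such as BMPR1A and the type II receptor BMPR2. The type II kinase activates the type I kinase, which phosphorylates the transducers SMAD1, SMAD5 and SMAD9, and these enter the nucleus with SMAD4. ID1 and ID3 are among the genes that this signal induces most directly, and the acetyltransferase p300, the product of EP300, is known as a coactivator of SMADs. ID proteins have a helix-loop-helix domain but no basic region: they pair with E proteins such as TCF3 and keep them off DNA. In mammary epithelium ID1 is known for holding back differentiation in culture, and ID2 is needed for the milk-producing lobules to form in pregnancy.

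Total counts ran from 31396653 to 45606950 per library. Levels below are CPM (counts relative to library size) after TMM scaling, a correction for differences in library composition. The EP300 level was 167 to 177 CPM in NS1 and 106 to 108 in EP300 KD1, and 165 to 180 in NS2 and 92.3 to 99.9 in EP300 KD2, with no overlap. Its paralog CREBBP did not pass the test against the control of the same number. It did pass as lower in EP300 KD1 against NS2 (-0.084 on the log2 scale), but not in EP300 KD2 against NS1. Mammary epithelial markers summed to 7283 to 8495 CPM in the controls and 4688 to 5966 in the shRNA groups, and of these KRT14 held only 197 counts over all libraries. By the test described below, 3 of the 10 markers were higher and 7 lower in EP300 KD1 than in NS1. Over all genes tested these shares were 32.6% and 32.3%. KRT8, among those higher in EP300 KD1, was tested only through its row NR_045962, with means of 2.20 CPM in NS1 and 3.32 in EP300 KD1. Its other row, NM_002273, had at most 4 counts in any group. Reads in exon shared by these rows may be missing, so the KRT8 values may not give its total level. No marker was higher and 9 were lower in EP300 KD2 than in NS2, where 27.9% and 29.9% of all genes were higher and lower. KRT14, one of the lower ones, had enough counts to be tested through the control libraries only. Markers of other cell types were partly present: CD14, PECAM1, DCN, FBLN1, C1R and COL1A1 had 4572 to 14674 counts each in all, whereas PTPRC, CD3E, MS4A1, CLDN5, LUM, COL1A2, COL3A1 and THY1 had between 0 and 3.

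How ID1 was counted sets what its values mean. The table has 2 ID1 rows on chromosome 20, where the gene spans chr20:31605289-31606510 (GRCh38, plus strand). The usual spliced transcript NM_002165 was at 0 counts in all 12 libraries, and NM_181353, a single-exon form that keeps the intron, had 1251. The exons of NM_002165 lie wholly within NM_181353 in GENCODE v29. The 239 bases from 31605814 to 31606052, the intron of NM_002165, are the only ones that NM_181353 does not share. A read inside shared exon belongs to both rows, and the counts fit a table in which such reads were given to neither. The ID1 values below are therefore levels of reads assigned through this intron, from the retained-intron form or unspliced RNA, and are not the total level of ID1. The first 24 bases of this stretch carry the coding end of NM_181353, with its stop codon in capitals:
ID1 retained intron, start of the unshared stretch: gtgagatccagatccgaccacTAG

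**Figure D1:**
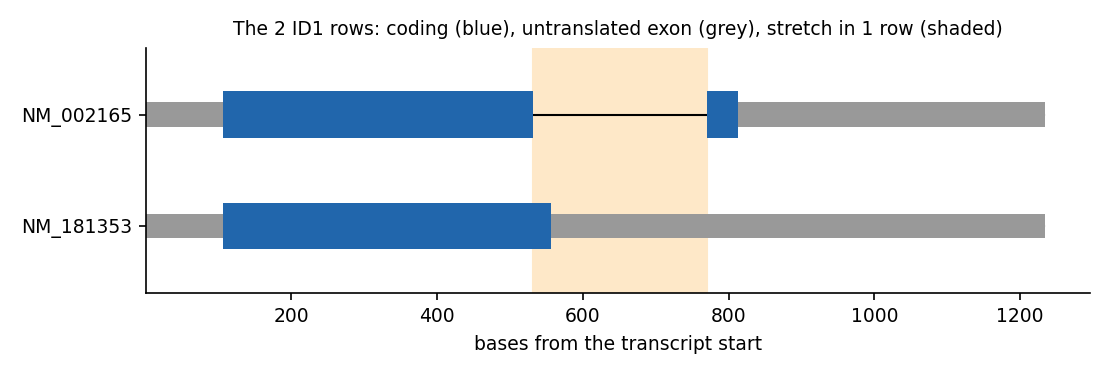
Structure of the 2 ID1 rows in bases from the transcript start, with coding exon in blue, untranslated exon in grey and the intron as a line. The shaded 239 bases belong to NM_181353 alone, the only ID1 row with counts (1251 over all libraries).

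The promoters of the 3 ID genes that could be tested are shown because the genes share an inducer. As described below, their rows did not move together, though the ID1 row holds reads assigned through the intron alone. Each line holds the 250 bases before the RefSeq start (GRCh38.p14), read 5′ to 3′ on the gene's strand. ID1 is at chr20:31605039-31605288 on the plus strand, ID2 at chr2:8681806-8682055 on the plus strand and ID3 at chr1:23559502-23559751 on the minus strand. Capitals mark, on either strand, the GC-rich SMAD motifs GGCGCC and GGAGCC, the SMAD box CAGAC, the cyclic AMP response element half-site TGACG, the CCAAT box and TATAAA:
ID1: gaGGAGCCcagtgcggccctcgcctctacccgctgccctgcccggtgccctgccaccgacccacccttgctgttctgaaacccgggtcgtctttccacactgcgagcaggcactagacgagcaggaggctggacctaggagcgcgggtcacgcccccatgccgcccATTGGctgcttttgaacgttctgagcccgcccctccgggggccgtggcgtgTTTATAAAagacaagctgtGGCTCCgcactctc
ID2: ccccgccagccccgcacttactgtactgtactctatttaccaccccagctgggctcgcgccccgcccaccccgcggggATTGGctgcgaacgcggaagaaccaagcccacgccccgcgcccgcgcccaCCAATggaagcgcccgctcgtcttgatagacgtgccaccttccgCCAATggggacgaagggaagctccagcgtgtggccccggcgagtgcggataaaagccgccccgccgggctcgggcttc
ID3: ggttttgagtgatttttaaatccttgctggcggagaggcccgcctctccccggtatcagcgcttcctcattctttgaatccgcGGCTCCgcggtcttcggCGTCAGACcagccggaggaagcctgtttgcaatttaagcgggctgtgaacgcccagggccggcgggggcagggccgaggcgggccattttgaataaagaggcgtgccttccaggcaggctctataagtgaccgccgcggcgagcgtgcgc

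In these windows ID1 had 2 matches to GGAGCC, 1 to the CCAAT box and a TATAAA read on both strands (TTTATAAA). ID2 had 3 CCAAT boxes and no other match, and ID3 had 1 GGAGCC, followed by a TGACG and a CAGAC that overlap. Among 35116 RefSeq promoter windows of the same length, 30.6% held GGAGCC, 38.0% CAGAC, 21.2% TGACG, 32.0% the CCAAT box, 16.4% GGCGCC and 10.7% TATAAA. These are matches of letters, not measured binding, and the BMP-responsive element described for ID1 lies farther upstream than this window.

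With the first hairpin, 4 of the 7 tested genes were higher than in NS1 (BMPR1A, BMPR2, ID1, ID2), 2 were lower (BMP4, ID3) and BMP2 did not pass the test. That count is to be read against 64.9% of all 13424 genes tested, 32.6% higher and 32.3% lower. With the second hairpin, 3 of 7 were higher than in NS2 (BMPR2, ID1, ID2), none was lower and 4 did not pass, against 57.8% of all genes tested, 27.9% higher and 29.9% lower. Here and below a gene is called higher or lower at an adjusted p under 0.05 in edgeR's quasi-likelihood test, with Benjamini-Hochberg adjustment over all genes tested. The controls themselves differed: in NS2, BMPR1A was higher and BMP4, ID2 and ID3 were lower than in NS1, where 27.5% of all genes tested were called, 14.2% higher and 13.4% lower. In bulk RNA, more cells that express a gene and more RNA per cell cannot be told apart. Each change is also given against the other control, a comparison added after the data were seen, in which 3 of the 7 were called with the first hairpin (62.2% of all genes) and 5 with the second (59.9%). The changes with the 2 hairpins differed for 3 of the 7 (BMPR1A, BMPR2 and ID3), against 50.8% of all genes tested. Of the 3 genes higher with both hairpins, ID1 was the one that was also higher with both against the other control, a pattern held by 12.2% of all genes tested.

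**Figure D2:**
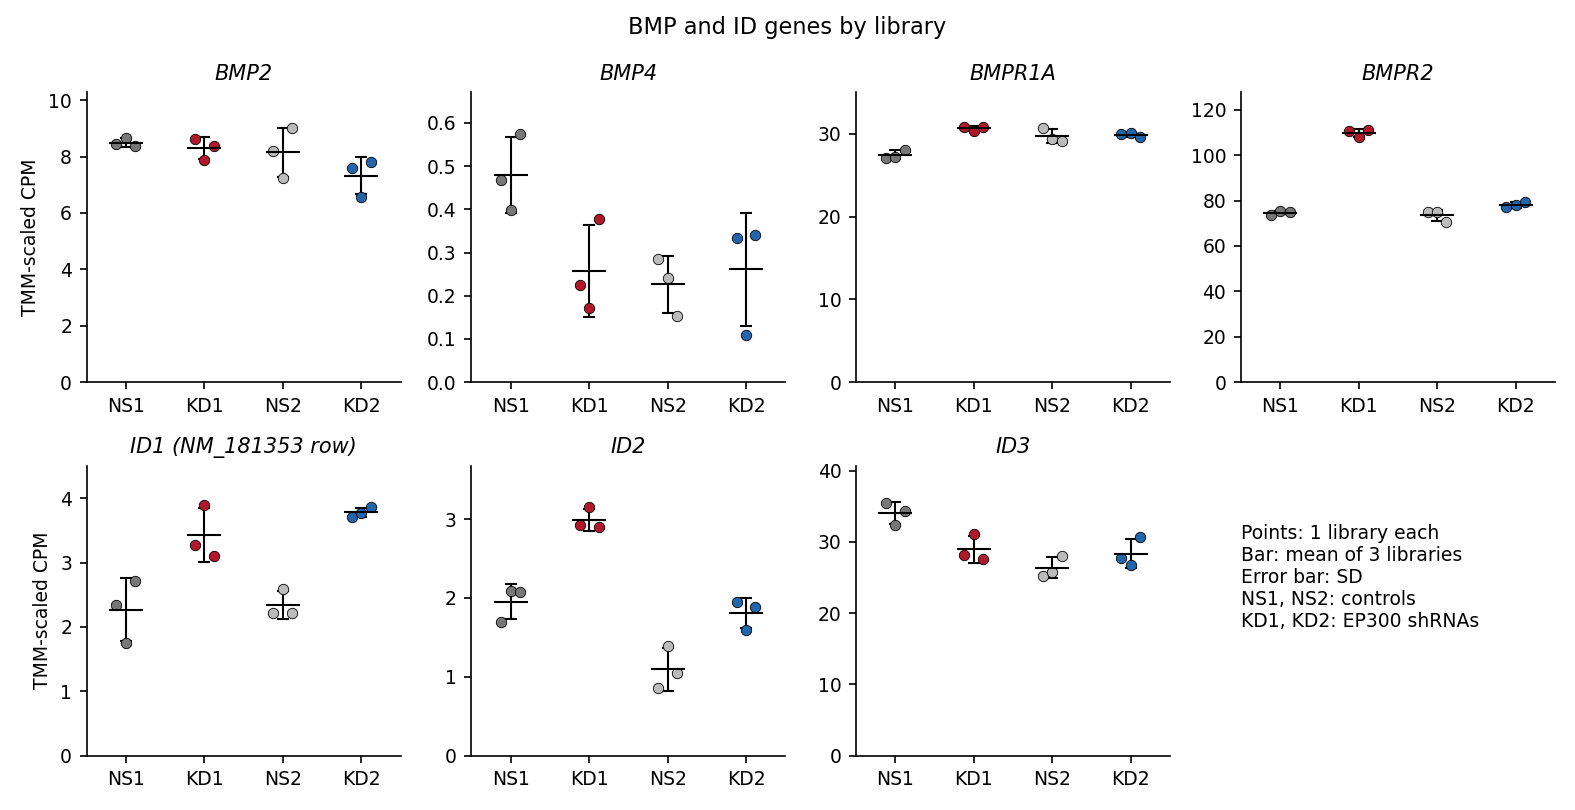
TMM-scaled CPM of the 7 tested genes in every library (points), with the mean (horizontal bar) and SD (error bar) of the 3 libraries of each group, on axes that start at 0. BMPR2 stands apart in EP300 KD1 (108 to 111 CPM), and ID2 and ID3 differ between the controls NS1 and NS2. The ID1 row, which holds reads assigned through the intron and not total ID1, is higher in both shRNA groups.

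Per kilobase of exon unique to its row, the ID3 row had the highest level of the rows that could be placed, from 21.1 ± 1.17 CPM per kilobase in NS2 to 27.2 ± 1.28 in NS1 (SD, n = 3). The ID1 row followed with 9.49 ± 2.03 in NS1 to 15.8 ± 0.312 in EP300 KD2 over its 239 bases. How reads that cross the edges of this stretch were counted is not known, so that value is uncertain. BMPR2 followed at 6.41 ± 0.221 (NS2) to 9.58 ± 0.150 (EP300 KD1) CPM per kilobase. In NS1, BMPR1A at 2.44 ± 0.0470 and BMP2 at 2.36 ± 0.0430 CPM per kilobase did not differ beyond their SDs. ID2 was at 1.43 ± 0.165 in NS1 and 0.803 ± 0.198 in NS2. BMP7, SMAD6 and ID4 lay below 0.1 CPM per kilobase in every group, and BMP4 had no transcript model to give its length.

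Among BMP2, BMP4 and BMP7, BMP2 was the one clearly present. BMP2 (NM_001200, chr20:6767686-6780246), a ligand known for inducing bone and for patterning many epithelia, was at 8.46, 8.67 and 8.36 CPM in NS1 and at 8.63, 7.88 and 8.39 CPM in EP300 KD1. It was at 8.18, 7.25 and 9.01 CPM in NS2 and at 7.59, 6.57 and 7.81 CPM in EP300 KD2. EP300 KD1 overlapped with NS1 and EP300 KD2 with NS2, while EP300 KD2 lay below NS1 and EP300 KD1. The log2 change was -0.03 ± 0.09 (SE, 95% interval -0.22 to 0.15, adjusted p = 0.749) with the first hairpin and -0.15 ± 0.09 (interval -0.34 to 0.03, adjusted p = 0.143) with the second, and the 2 changes did not differ by the test (0.12 ± 0.12, adjusted p = 0.443). Against NS1, BMP2 in EP300 KD2 passed the threshold (-0.21, adjusted p = 0.0395), as it did against NS2 without NS2 replicate 2 (-0.23, adjusted p = 0.0468). It also passed against both control groups pooled (-0.184, adjusted p = 0.0413).

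BMP4, a close relative of BMP2, was near the limit of detection. BMP4 (NM_001202, chr14:53949736-53956891) had 16, 13 and 26 counts in NS1 and 7, 6 and 13 in EP300 KD1. It had 9, 8 and 5 counts in NS2 and 14, 4 and 11 in EP300 KD2. The filter for low counts was reached by 3 libraries of NS1, 2 of EP300 KD2, 1 of EP300 KD1 and none of NS2. In CPM, NS1 was at 0.480 ± 0.0879 and the other groups between 0.226 ± 0.0665 (NS2) and 0.261 ± 0.131 (EP300 KD2) (SD, n = 3), and NS1 did not overlap with them.

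The BMP4 change was -0.91 ± 0.37 on the log2 scale with the first hairpin (adjusted p = 0.0393) and 0.21 ± 0.44 with the second (adjusted p = 0.711). NS2 differed from NS1 by as much (-1.10 ± 0.38, adjusted p = 0.0405), a call lost without any 1 of the 6 libraries other than NS1 replicate 2 (adjusted p = 0.0518 to 0.160). The call with the first hairpin was lost in DESeq2 (adjusted p = 0.121) and without NS1 replicate 1 or 3 or EP300 KD1 replicate 1 or 2 (adjusted p = 0.0617 to 0.156), and against NS2 the change was 0.19 (adjusted p = 0.725). Without EP300 KD2 replicate 2 the 2 hairpins' changes differed by -1.47 (adjusted p = 0.0266), against -1.11 ± 0.57 (adjusted p = 0.116) with all libraries. The fall in BMP4 thus held against NS1 alone and rested on few counts.

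BMP7 (NM_001719, chr20:57168753-57266641), a ligand best known from kidney and bone, had 1 count in the 12 libraries together, in EP300 KD1 replicate 1. A count of 0 in a group allows a level of up to 0.0308 CPM (3 counts over the 3 NS2 libraries, counting error only), so BMP7 messenger was not detectable at this depth.

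The clearest change of the set was that of the receptor BMPR2, and with the first hairpin only. BMPR2 (NM_001204, chr2:202376327-202567749), the type II kinase that starts the signal, was at 73.8, 75.2 and 74.8 CPM in NS1 and at 111, 108 and 111 CPM in EP300 KD1. It was at 75.0, 74.9 and 70.6 CPM in NS2 and at 77.0, 77.9 and 79.2 CPM in EP300 KD2. All EP300 KD1 libraries lay far above all others, and the EP300 KD2 libraries lay just above both controls.

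BMPR2 rose by 0.56 ± 0.03 on the log2 scale with the first hairpin (95% interval 0.50 to 0.62, adjusted p = 2.34e-12) and by 0.09 ± 0.03 with the second (interval 0.02 to 0.15, adjusted p = 0.0180). The difference between the changes was 0.47 ± 0.04 (adjusted p = 1.64e-08). NS2 and NS1 did not differ beyond the spread of their libraries (-0.02). The small rise with the second hairpin was lost without NS2 replicate 3 (0.06, adjusted p = 0.108), without EP300 KD2 replicate 3 (0.08, adjusted p = 0.0538) and against NS1 (0.06, adjusted p = 0.0649). The rise with the first was 0.58 against NS2.

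The summed level of the fibroblast markers was also highest in EP300 KD1, at 96.2 to 99.9 CPM against 51.1 to 52.6 in NS1, 33.0 to 35.5 in NS2 and 37.4 to 39.7 in EP300 KD2. Of the 9 markers, 5 were tested. With the first hairpin 4 were higher and 1 lower (32.6% and 32.3% of all genes tested). With the second 3 were higher and 1 lower (27.9% and 29.9%). The lower one was FBLN1 with both hairpins. Its mean level was 30.3 CPM in NS1 and 7.84 in EP300 KD1, and 15.4 in NS2 and 5.76 in EP300 KD2. LUM, COL1A2 and COL3A1 were at 0 counts everywhere and THY1 at 1. The part of these genes in the BMPR2 result was not tested.

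BMPR1A (NM_004329, chr10:86755763-86932844), the type I receptor that BMP2 and BMP4 bind, differed by little. Its level was 27.1, 27.2 and 28.1 CPM in NS1 and 30.8, 30.3 and 30.8 CPM in EP300 KD1. It was 30.7, 29.3 and 29.2 CPM in NS2 and 29.9, 30.1 and 29.6 CPM in EP300 KD2. The NS1 libraries were the low ones, and the other 3 groups overlapped or adjoined each other.

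BMPR1A rose by 0.16 ± 0.04 on the log2 scale with the first hairpin (adjusted p = 0.000627), whereas the second gave 0.01 ± 0.04 (95% interval -0.07 to 0.08, adjusted p = 0.875). NS2 was higher than NS1 by 0.11 (adjusted p = 0.0227, lost in DESeq2 with adjusted p = 0.134, and without NS1 replicate 1 or 2 or NS2 replicate 1 with adjusted p = 0.0659 to 0.109). With the controls exchanged the calls exchanged as well: EP300 KD1 against NS2 gave 0.05 (adjusted p = 0.290) and EP300 KD2 against NS1 gave 0.12 (adjusted p = 0.00565). The difference between the hairpins' changes, 0.15 ± 0.05 (adjusted p = 0.0165), was 0.08 when libraries were scaled by their totals alone (adjusted p = 0.193) and 0.13 in DESeq2 (adjusted p = 0.151) or without NS2 replicate 1 (adjusted p = 0.0505).

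SMAD6, which blocks BMP receptors and SMAD1 and is itself induced by BMP, was not tested. SMAD6 lies at chr15:66702236-66782849 and has 2 rows. NM_005585 had 6, 7 and 9 counts in NS1, 0, 3 and 2 in EP300 KD1, 3, 2 and 1 in NS2 and 0, 0 and 4 in EP300 KD2. The row NR_027654 had 2 counts in all. NS1 lay above every other library, NS2 included, and 2566 of the 3835 exonic bases of NM_005585 are unique to it, so that reads in the rest may be missing from its counts.

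The ID rows split, though the ID1 row holds reads assigned through the intron and not total ID1. The ID1 row was higher with both hairpins. ID2 was higher with both against the control of the same number, and the direction of ID3 depended on the control. The ID1 row NM_181353 was at 2.33, 1.75 and 2.71 CPM in NS1 and at 3.27, 3.90 and 3.11 CPM in EP300 KD1. It was at 2.21, 2.59 and 2.21 CPM in NS2 and at 3.71, 3.76 and 3.86 CPM in EP300 KD2. All 6 shRNA libraries lay above all 6 control libraries.

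The ID1 row rose by 0.58 ± 0.14 on the log2 scale with the first hairpin (95% interval 0.29 to 0.88, adjusted p = 0.00131) and by 0.69 ± 0.14 with the second (interval 0.40 to 0.98, adjusted p = 0.000318). The difference between the 2 changes was -0.11 ± 0.20 (adjusted p = 0.682). NS2 and NS1 differed by 0.03 (adjusted p = 0.911), and against the other control the rises were 0.55 and 0.72. Since these reads come from the intron, more retained or unspliced ID1 and more ID1 transcript in all cannot be told apart.

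ID2 (NM_002166, chr2:8682056-8684461) was scarcer. Its level was 1.69, 2.09 and 2.07 CPM in NS1 and 2.92, 3.15 and 2.90 CPM in EP300 KD1. It was 0.853, 1.38 and 1.05 CPM in NS2 and 1.95, 1.59 and 1.88 CPM in EP300 KD2. Within each numbered pair the shRNA libraries lay above the controls, but EP300 KD2 overlapped with NS1, and NS2 was the lowest group.

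ID2 rose by 0.61 ± 0.15 on the log2 scale with the first hairpin (adjusted p = 0.00114) and by 0.72 ± 0.17 with the second (adjusted p = 0.00116), and NS2 was lower than NS1 by a similar amount (-0.83 ± 0.17, adjusted p = 0.000929). The difference between the hairpins' changes was -0.11 ± 0.22 (adjusted p = 0.717). Against the other control EP300 KD1 was 1.45 higher, a larger change than against NS1, whereas EP300 KD2 against NS1 gave -0.11 (adjusted p = 0.555). With both control groups pooled the second hairpin gave 0.31 (adjusted p = 0.0610). The rise with the first hairpin therefore held against either control, and that with the second held against NS2 alone.

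**Figure D3:**
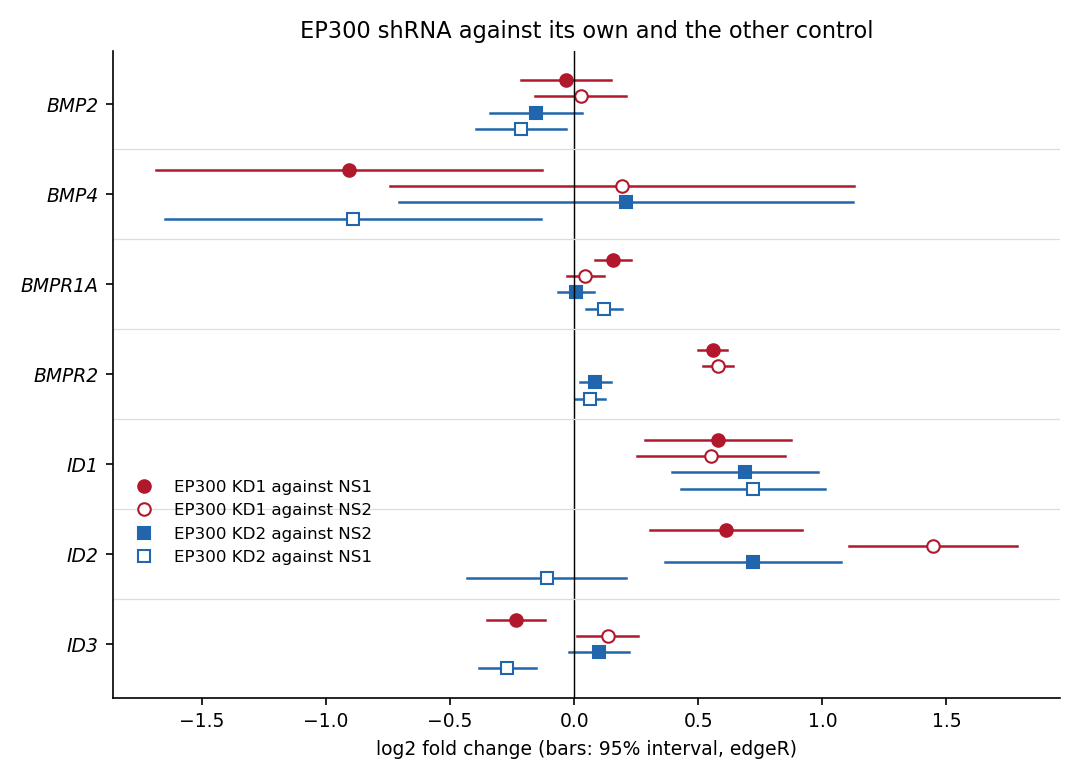
Log2 fold change of the 7 tested genes with each EP300 hairpin (circles, EP300 KD1; squares, EP300 KD2) against the control of the same number (filled) and the other control (open), with 95% intervals. The 4 ID1 intervals lie right of 0, the BMPR2 values of the first hairpin agree at 0.56 and 0.58, and BMP4, ID3, BMP2 with the first hairpin and ID2 with the second change sign with the control.

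ID3 (NM_002167, chr1:23557926-23559501), the ID row with the highest CPM here, moved less. Total ID1 is not known, so the 2 genes cannot be ranked. Its level was 35.5, 32.3 and 34.4 CPM in NS1 and 28.2, 31.1 and 27.6 CPM in EP300 KD1. It was 25.2, 25.9 and 28.0 CPM in NS2 and 27.7, 26.7 and 30.7 CPM in EP300 KD2. NS1 lay above the other 3 groups, which overlapped.

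ID3 fell by 0.24 ± 0.06 on the log2 scale with the first hairpin (adjusted p = 0.00112), and the second gave 0.10 ± 0.06 (adjusted p = 0.145). The changes differed by -0.34 ± 0.08 (adjusted p = 0.00176), and NS2 was lower than NS1 by -0.37 ± 0.06 (adjusted p = 7.22e-05). Against NS2 the first hairpin gave 0.135 (adjusted p = 0.0520), and against NS1 the second gave -0.27 (adjusted p = 0.000324). Scaled by library totals alone, the second hairpin's value passed the threshold as a rise of 0.17 (adjusted p = 0.0162), as it did with upper-quartile factors or no filter (0.15). ID3 thus separated NS1 from the other groups rather than shRNA from control.

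ID4 (NM_001546, chr6:19837370-19842197), in mammary gland a marker of basal cells, had 4 counts in NS1 and 3 in each of the other groups. It was not tested.

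Genes whose level followed ID3 most closely over the 12 libraries, by Pearson's r of log2 CPM among 11376 genes, were DDA1 (r = 0.929), PMEPA1 (0.917) and CCDC167 (0.911). For BMP2 they were MFSD11 (0.881), OXSM (0.876) and PSMB1 (0.866). The libraries share groups and scaling, so these are descriptions of 12 points in 4 groups.

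The rest of the pathway was followed through 58 further genes, of which 42 were tested. These genes were listed with earlier results of these data known. With the first hairpin 27 were higher, 8 lower and 7 did not pass, where 32.6% of all genes tested were higher and 32.3% lower, with a median log2 change of 0.34 against -0.006 over all genes. With the second 25 were higher, 12 lower and 5 did not pass, where 27.9% of all genes were higher and 29.9% lower, with a median of 0.21 against -0.002. Both hairpins gave the same called direction for 28 of the 42 (66.7%), 22 higher and 6 lower, where 32.6% of all genes did so, 15.3% higher and 17.3% lower. Without BMP5, which was tested through NS1 alone, 27 of 41 (65.9%) shared their direction, 5 of them lower. Against both controls 17 stayed higher (12.2% of all genes) and 5 lower (14.4%). All these counts keep GDF5 and GATA2 (higher) and SOSTDC1 (lower), which passed the filter for low counts through the groups where they were high. Their calls add no support.

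**Figure D4:**
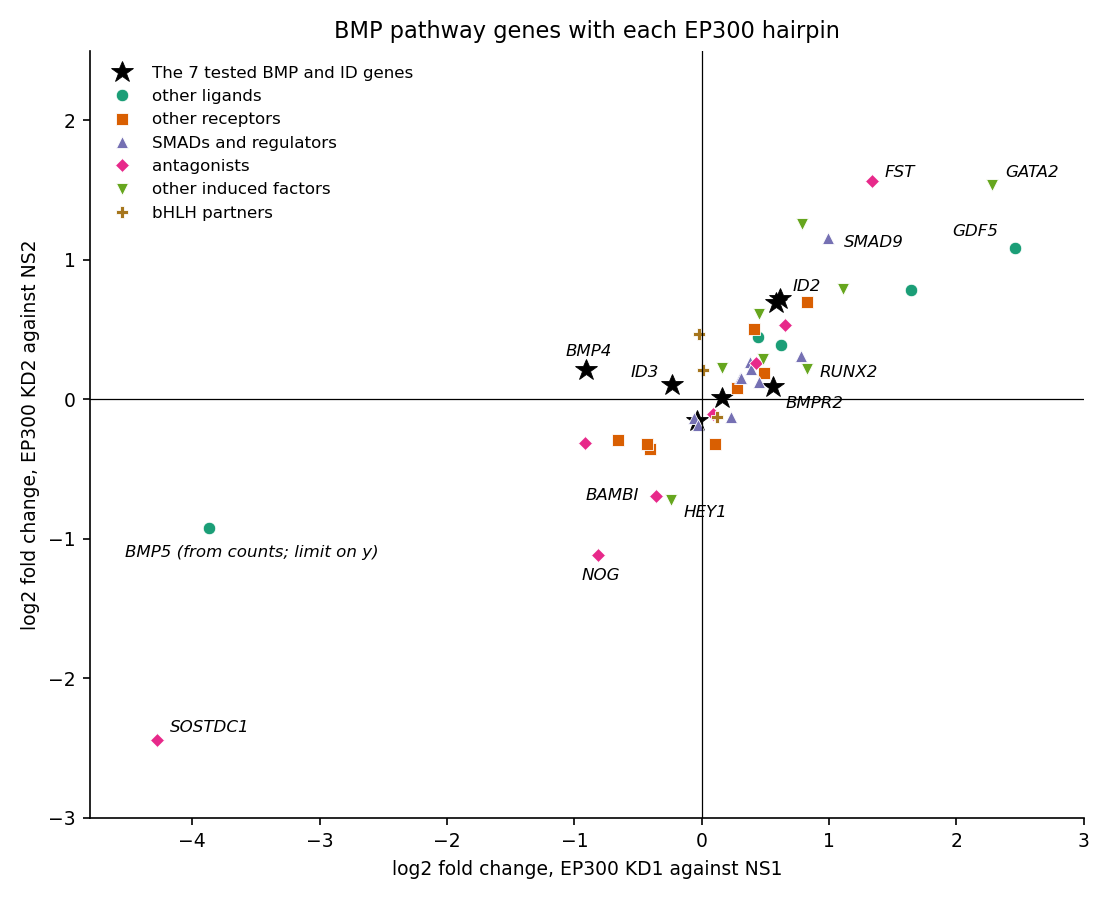
Log2 fold changes of the 7 tested BMP and ID genes (stars) and 42 other pathway genes, EP300 KD1 against NS1 on the x axis and EP300 KD2 against NS2 on the y axis. BMP5 is drawn from its counts. Its y value sets the 0 counts of EP300 KD2 to 3 and takes the NS2 counts as exact. Most SMAD genes and regulators and FST, GDF5 and GATA2 lie in the upper right, while SOSTDC1 and NOG lie in the lower left.

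Of 10 further ligands 5 were tested, with 3 higher and 1 lower (BMP5) under each hairpin, where 32.6% and 32.3% of all genes were higher and lower with the first and 27.9% and 29.9% with the second. GDF5, a BMP-family ligand of joints and cartilage, rose from 0.180 ± 0.0782 CPM in NS1 to 1.04 ± 0.188 in EP300 KD1 (2.46 on the log2 scale) and from 0.296 ± 0.155 in NS2 to 0.641 ± 0.123 in EP300 KD2 (1.08, lost without NS2 replicate 1 with adjusted p = 0.0638). GDF5 reached the filter for low counts in no NS1 library and not in every NS2 library. It was thus tested through the shRNA groups, and its rise is a description. BMP6, a ligand that regulates hepcidin in liver, rose by 0.62 and 0.39, and BMP8B by 0.44 and 0.45. Against NS2 the first hairpin's changes in BMP6 (0.24, adjusted p = 0.0656) and BMP8B (0.25, adjusted p = 0.0890) did not pass.

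BMP5 had 49 counts in NS1 and 3 in EP300 KD1, a level 14.6-fold lower (counting interval 4.73 to 73.4). It had 5 counts in NS2 and 0 in EP300 KD2, 1.90-fold lower when the 0 is set to 3 counts over the group. This leaves out the counting error of the 5, so it is not a lower bound. Only NS1, at 0.369 to 0.496 CPM, reached the filter for low counts (0.292 CPM), and every other library lay at or below 0.0642 CPM. The gene was thus tested through the group in which it was high, and its calls as lower with both hairpins are not used as support.

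Of 8 further receptors and co-receptors tested, 5 were higher and 3 lower with the first hairpin (32.6% and 32.3% of all genes tested), and 3 higher and 3 lower with the second (27.9% and 29.9%). ENG, the co-receptor endoglin, rose by 0.41 ± 0.03 and 0.51 ± 0.03, from 80.9 ± 1.85 to 108 ± 2.67 CPM and from 76.4 ± 2.05 to 108 ± 1.67 CPM. NEO1, neogenin, which binds the RGM co-receptors, rose by 0.83 and 0.70. ACVR2B, a type II receptor, rose by 0.49 and 0.19, the second lost against NS1 (0.10, adjusted p = 0.169) and without NS2 replicate 3 or EP300 KD2 replicate 1 or 3 (adjusted p = 0.0525 to 0.0894).

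ACVR1, a type I receptor for BMP7-like ligands, moved in opposite directions: 0.10 ± 0.04 with the first hairpin (adjusted p = 0.0392) and -0.32 ± 0.04 with the second (adjusted p = 3.35e-06). The first of these calls was lost with a replicate block (adjusted p = 0.0510), in DESeq2 (adjusted p = 0.156), against NS2 (adjusted p = 0.124) and when NS1 replicate 2 or 3 or EP300 KD1 replicate 2 or 3 was left out (adjusted p = 0.0945 to 0.119).

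Of the 10 signalling SMADs and regulators, all tested, 8 were higher and none lower with the first hairpin (32.6% and 32.3% of all genes tested), and 7 were higher and 2 lower with the second (27.9% and 29.9%). SMAD9, a BMP transducer whose own gene is BMP-induced, rose by 0.99 ± 0.10 and 1.16 ± 0.10, from 3.39 ± 0.282 to 6.71 ± 0.591 CPM and from 3.00 ± 0.149 to 6.68 ± 0.569 CPM. SMAD5 rose by 0.39 and 0.22. SKI, a repressor that binds SMADs, rose by 0.78 and 0.31, and SMURF2, a ubiquitin ligase for SMADs and receptors, by 0.45 and 0.13. These 7 higher with both hairpins were also higher against the other control. They include repressors and inhibitors of the signal (SKI, SKIL, SMURF2, and the SMAD phosphatase PPM1A) beside its transducers.

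Of 8 secreted antagonists and the pseudoreceptor tested, 4 were higher and 4 lower with the first hairpin (32.6% and 32.3% of all genes tested), and 3 higher and 4 lower with the second (27.9% and 29.9%). FST, follistatin, which binds activins and some BMPs, rose by 1.34 ± 0.07 and 1.56 ± 0.07, from 8.88 ± 0.240 to 22.4 ± 0.743 CPM and from 7.54 ± 0.984 to 22.3 ± 0.730 CPM. TWSG1, a BMP-binding partner of chordin, rose by 0.66 and 0.54. SOSTDC1, an antagonist of BMP and Wnt ligands, fell by 4.28 ± 0.30 and 2.44 ± 0.36 on the log2 scale, from 1.99 ± 0.0998 to 0.102 ± 0.0531 CPM and from 0.606 ± 0.179 to 0.112 ± 0.0415 CPM. SOSTDC1 reached the filter for low counts in control libraries only, so its fall is a description. BAMBI, a receptor without a kinase that dampens the signal and is induced by it, fell by 0.36 and 0.69. NOG, noggin, named after its values were seen, fell by 0.82 and 1.12.

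Of 8 other BMP-induced transcription factors tested, 6 were higher and none lower with the first hairpin (32.6% and 32.3% of all genes tested), and 7 were higher and 1 (HEY1) lower with the second (27.9% and 29.9%). GATA2, a factor of blood and endothelium, rose by 2.28 and 1.54, from 0.191 ± 0.0488 to 0.967 ± 0.209 CPM and from 0.145 ± 0.0503 to 0.425 ± 0.0853 CPM. RUNX2, a master regulator of bone, rose by 0.83 and 0.22 in the one of its 3 rows with counts. Reads in exon shared by these rows may be missing from its counts. ATOH8 rose by 1.11 and 0.79 and TBX3, a factor needed for mammary development, by 0.48 and 0.29, but against NS1 the second hairpin gave -0.21 for ATOH8 (adjusted p = 0.400) and 0.01 for TBX3 (adjusted p = 0.894). GATA2 reached the filter for low counts in shRNA libraries only, so its rise is a description. Of 6 endothelial markers 2 were tested. PECAM1 fell with both hairpins, and KDR rose by 0.71 with the first and gave 0.32 (adjusted p = 0.506) with the second. Their summed level, most of it PECAM1, was 28.7 to 40.5 CPM in the controls and 5.33 to 11.3 in the shRNA groups, and their part in these results was not tested.

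The 3 E proteins that ID proteins bind followed no common direction. TCF3 gave 0.01 (adjusted p = 0.774) with the first hairpin and rose by 0.21 with the second, and TCF12 rose by 0.12 and fell by 0.13, neither call holding against the other control (adjusted p = 0.507 and 0.428). TCF4 gave -0.02 (adjusted p = 0.857) and rose by 0.47, but it was lower in NS2 (4.24 ± 0.186 CPM) than in NS1 (6.26 ± 0.648), and against the other control it rose by 0.54 with the first hairpin and gave -0.09 (adjusted p = 0.387) with the second.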

How the data were processed

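The stranded TruSeq mRNA kit of Illumina was used for all 12 MCF10AT libraries, per the labels' protocols. HISAT2 2.1.0 (build hg38) and featureCounts are the tools that the submitters' processing notes name. The counter's settings and annotation were not given there. What the authors deposited are raw counts, 1 whole number per RefSeq accession and library. Of 29094 accessions, 28134 were named from a RefSeq gene table and 485 from GENCODE v29, and 475 had no symbol.

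Counts were tested with edgeR 4.0.16 (quasi-likelihood fit, TMM scaling, filterByExpr, 1 coefficient per group over all 12 libraries), which left 13424 rows, with Benjamini-Hochberg adjustment and a threshold of 0.05. Standard errors came from the test statistic. The procedure was tested on simulated data in which far fewer genes changed than were called here. How it behaves under changes this widespread was not tested. Replicate pairs had a chi-square of 1.86 to 4.54 times its degrees of freedom and were kept as separate samples. Alternatives were DESeq2 1.42.0, limma-voom (limma 3.58.1), other scalings, no filter, no genes with several rows, a replicate block, fewer libraries, pooled controls and each library left out.

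Members and lists were chosen with earlier results of these data known. The 10 genes were always named, from each wider list up to 4 genes with the smallest p in either hairpin comparison, and for ID3 and BMP2 the 3 genes of at least 1 CPM with the highest correlation. HEY1, SKIL, PPM1A and NOG were added after their values were seen. Sequences came from RefSeq tables (GRCh38.p14), which matched 8 of the 10 genes. RefSeq gave gene positions.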

Additional observations from a re-analysis of the deposited data

Results flagged for a closer look

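For 15 of the members and the pathway genes named by rule, the change with the first hairpin differed from that with the second by the test of the difference itself, the change of EP300 KD1 against NS1 minus that of EP300 KD2 against NS2 (edgeR, adjusted p under the threshold). Over all genes tested 50.8% did so, so such a difference is common in these data. Of all 42 other pathway genes tested, named or not, 15 were called higher and 3 lower in this difference. On the log2 scale the difference was 0.15 for BMPR1A, 0.47 for BMPR2 and -0.34 for ID3. Among the pathway genes named by rule it was 1.38 for GDF5, 0.42 for ACVR1, 0.30 for ACVR2B, 0.17 for SMAD5, 0.33 for SMURF2, 0.47 for SKI, -1.83 for SOSTDC1, 0.33 for BAMBI, 0.61 for RUNX2, -0.20 for TCF3, -0.49 for TCF4 and 0.25 for TCF12. Each such difference holds the difference between NS1 and NS2 as well: for SKI, EP300 KD1 at 93.4 ± 6.72 CPM and EP300 KD2 at 93.2 ± 1.63 lay within their SDs of each other, and NS1 at 54.4 ± 2.14 lay below NS2 at 75.2 ± 1.84. For BMPR2 the controls lay within their SDs of each other at 74.6 ± 0.705 and 73.5 ± 2.54 CPM, and EP300 KD1 at 110 ± 1.72 lay above EP300 KD2 at 78.0 ± 1.10. The GDF5 difference was lost in DESeq2 (adjusted p = 0.0636) and without NS1 replicate 2, NS2 replicate 2 or 3, EP300 KD1 replicate 2 or EP300 KD2 replicate 1 (adjusted p = 0.0590 to 0.152), and that of SOSTDC1 without EP300 KD2 replicate 3 (adjusted p = 0.0825).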

How the results depend on the processing

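Of 442 values recomputed for the tested members, 387 kept their direction and side of the threshold, and of 1168 for the named pathway genes 1104 did. Against the other control, a setting added after the data were seen, the members called went from 6 to 3 for the first hairpin and from 3 to 5 for the second, and the log2 changes that turned were BMP2 (0.027), BMP4 (0.193), ID3 (0.135) and TCF4 (0.536) for the first and BMP4 (-0.891), ID2 (-0.111), ID3 (-0.269), ATOH8 (-0.211) and TCF4 (-0.089) for the second. With pooled controls TCF4 turned for the first (0.256) and BMP4 (-0.342) and ID3 (-0.084) for the second. Members called between NS2 and NS1 fell from 4 to 2 in DESeq2, and to 2 or 3 with a library left out; the cause was not tested. In limma-voom the difference between hairpins turned for BMP5 (-1.347) and BMP8B (0.002). Leaving out single libraries, values crossed 0 for BMP2 (-0.062 to 0.003), TCF3 (-0.037 to 0.042) and TCF4 (-0.066 to 0.063) with the first hairpin, for BMP4 (-0.043 to 0.567) and BMPR1A (-0.003 to 0.033) with the second, for ID1 (-0.262 to 0.047), ID2 (-0.321 to 0.039), BMP5 (-0.657 to 0.788) and BMP8B (-0.129 to 0.076) in the difference, and for BMP2 (-0.137 to 0.016), BMPR2 (-0.036 to 0.008) and ID1 (-0.119 to 0.190) between the controls; none of these was called with all libraries. Replicate numbers did not pair the samples (correlations of same-numbered deviations -0.0447 to 0.0257). With a replicate block the first hairpin called 8748 genes (8711 without) and the second 7802 (7762 without), the members called stayed at 6 and 3, and among the members and the pathway genes named by rule ACVR1 with the first hairpin was the call lost. Scaling by library totals moved the share of calls that were higher from 48.2% to 61.3% for the second hairpin, from 57.4% to 45.2% for the difference and from 51.5% to 42.7% for NS2 against NS1, but no median over all genes by more than 0.1. Depth limits BMP4, BMP5, SMAD6 and ID4, which had few counts, and BMP7.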
